A study of Mus musculus with 15 samples.

Results

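The ABC (ATP-binding cassette) genes were followed through 15 RNA-Seq samples of cell lines derived from NMuMG, a mouse mammary gland epithelial line. Members were taken by gene symbol, as every gene whose symbol joined Abc to a letter from a to g and a number, together with Cftr. The rule found 38 of the 15701 genes listed in the 2 deposited tables, of which 32 of 13893 were in Dataset 1, 37 of 15023 in Dataset 2 and 31 in both. The group was put forward because it holds Abcc2, which was chosen by its measured values (higher after PCBP1 knockdown and higher again in the knockouts), so the values of Abcc2 are a description and carry no test, and every count of members tested or called leaves Abcc2 out.

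Dataset 2 compared NMuMG cells labelled as untreated (2 samples, which the paper calls cells with a scrambled shRNA) with NMuMG cells carrying an shRNA against PCBP1, the shPCBP1 cells (2 samples). Dataset 1 held 11 lines, all of which carried the PCBP1 shRNA. They were the unaltered shPCBP1 line, 3 CT clones (shPCBP1 cells given Cas9 without a gene-specific guide), 3 FAM3C KO clones and 3 LIFR KO clones made with CRISPR, and 1 line with both genes knocked out, each with 1 RNA sample. The unaltered line and the CT clones served as the 4 controls of both knockouts, so those comparisons share control samples. The labels call the samples of Dataset 2 replicates without saying whether they came from separate cultures, so p values measure the spread between these samples, which may be technical. Levels are CPM (read counts that the authors scaled to a common library size) and are compared only within a dataset.

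Pcbp1, the gene targeted by the shRNA, stood at 287 and 312 CPM in NMuMG and at 14.1 and 14.2 CPM in shPCBP1 cells of Dataset 2, and at 19.9 to 39.5 CPM across the lines of Dataset 1. Fam3c was at 26.4, 33.9 and 42.9 CPM in the FAM3C KO clones against 47.0 to 59.4 CPM in the 4 controls, with no overlap. LIFR KO clones 1 to 3 held Lifr at 34.9, 29.3 and 14.6 CPM, of which the first 2 lay within the control range of 25.8 to 40.2 CPM, so the RNA level did not mark those clones as knockouts. Of 8 epithelial markers listed in each dataset, 7 reached 1 CPM in every sample. In every sample 2 immune markers also reached it, with immune sums of 6.79 to 13.9 CPM in Dataset 1 and 2.71 to 3.32 CPM in Dataset 2. Of the endothelial markers, 1 reached it in FAM3C KO clone 2 only. No adipocyte marker did, but Dataset 1 listed 0 and Dataset 2 only 1 of the 3. The mesenchymal markers summed to 536 and 557 CPM in NMuMG and 1311 and 1345 CPM in shPCBP1 cells, and their part in the results below was not tested. Library sizes implied by low values were 16031859 to 46901675 reads in Dataset 1, where the lowest value of each library was taken as 1 read. In Dataset 2 the steps between low values implied 52770449 to 56369786 reads.

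ABC proteins share an ATP-binding domain and most use ATP to pump a substrate across a membrane. The Abcc and Abcb exporters and Abcg2 remove drugs, glutathione conjugates and bile compounds from cells, Abca proteins mainly handle lipids, Abcd proteins feed fatty acids to peroxisomes, and several Abcb proteins act in mitochondria. Abce1 and the Abcf proteins do not transport and instead work on ribosomes and translation. Abcc2 (MRP2) is an apical exporter of conjugated bilirubin, drugs and glutathione conjugates, best known from the bile canaliculus of the liver and the proximal tubule of the kidney, and Cftr is the chloride channel mutated in cystic fibrosis.

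Promoter sequences are shown for Abcc2, on which the choice of the family rests, and for Abce1, Abcf1, Abcf2 and Abcf3. The last 4, members that do not transport, all rose after PCBP1 knockdown, as did 42.1% of all genes tested. Each sequence runs from 250 bases before to 50 bases after the RefSeq start of the gene (GRCm38.p6). Capitals mark matches, on either strand, to an E-box (CANNTG) or to the core of the antioxidant response element (TGACNNNGC), and these matches do not overlap each other. For a gene with more than 1 listed start, the first entry is printed.
Abcc2 (chr19:43782058-43782357, plus strand): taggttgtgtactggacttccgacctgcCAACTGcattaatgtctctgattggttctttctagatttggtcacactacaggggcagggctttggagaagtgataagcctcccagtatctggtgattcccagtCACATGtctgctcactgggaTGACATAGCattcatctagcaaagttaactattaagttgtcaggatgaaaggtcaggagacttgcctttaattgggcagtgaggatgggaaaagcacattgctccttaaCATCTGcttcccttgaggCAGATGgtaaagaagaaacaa
Abce1 (chr8:79711691-79711990, minus strand): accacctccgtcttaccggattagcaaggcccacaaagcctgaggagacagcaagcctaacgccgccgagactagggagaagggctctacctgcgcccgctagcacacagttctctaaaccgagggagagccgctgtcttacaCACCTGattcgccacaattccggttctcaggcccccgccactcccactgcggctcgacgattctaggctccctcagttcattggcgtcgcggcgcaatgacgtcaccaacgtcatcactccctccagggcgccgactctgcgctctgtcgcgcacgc
Abcf1 (chr17:35969701-35970000, minus strand): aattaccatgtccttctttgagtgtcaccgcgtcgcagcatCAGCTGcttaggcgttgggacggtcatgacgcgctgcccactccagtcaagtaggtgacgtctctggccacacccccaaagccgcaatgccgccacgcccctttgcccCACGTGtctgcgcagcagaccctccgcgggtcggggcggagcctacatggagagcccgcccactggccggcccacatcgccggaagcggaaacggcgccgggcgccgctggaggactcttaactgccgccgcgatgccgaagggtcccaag
Abcf2 (chr5:24577418-24577717, minus strand): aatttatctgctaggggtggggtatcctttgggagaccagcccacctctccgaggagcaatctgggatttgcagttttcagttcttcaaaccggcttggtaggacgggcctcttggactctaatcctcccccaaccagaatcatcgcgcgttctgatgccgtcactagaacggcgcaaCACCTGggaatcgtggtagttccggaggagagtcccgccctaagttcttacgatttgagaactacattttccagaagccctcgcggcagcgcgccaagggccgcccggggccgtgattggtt
Abcf3 (chr16:20548353-20548652, plus strand): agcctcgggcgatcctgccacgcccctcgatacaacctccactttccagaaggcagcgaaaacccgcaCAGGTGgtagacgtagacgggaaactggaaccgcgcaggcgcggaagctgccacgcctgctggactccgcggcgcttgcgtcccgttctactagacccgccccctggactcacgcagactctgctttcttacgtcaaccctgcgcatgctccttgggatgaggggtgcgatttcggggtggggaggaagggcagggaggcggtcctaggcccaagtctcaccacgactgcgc
The Abcc2 window held 4 E-boxes, on both sides of the start, and 1 antioxidant response core (TGACATAGC). The other 4 windows held an E-box and no antioxidant response core, with 2 E-boxes in Abcf1. A STAT site (TTCNNNGAA) matched in none of the 5. Among all 32851 promoters of the same length, 72.3% held an E-box, 12.4% the antioxidant response core and 8.3% a STAT site. Among 46 promoters of 39 ABC genes the counts were 40, 7 and 2. A match in these letters is a description and not a bound site.

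Abcc2 (ENSMUSG00000025194, plus strand of chromosome 19 from 43782192 to 43840740 in GRCm38) was at 0.903 and 0.660 CPM in NMuMG and at 4.55 and 4.92 CPM in shPCBP1 cells of Dataset 2. The groups did not overlap, and their fitted difference was 2.47 on the scale of log2(CPM + 0.1), which understates changes of low values. In bulk RNA, a rise in the share of cells that express a gene and a rise in RNA per cell cannot be told apart. Per kilobase of annotated exons, Abcc2 stood at 0.0916 CPM in NMuMG and 0.555 CPM in shPCBP1 cells, against 16.4 and 24.8 CPM for Abcf2, the member with the highest value per kilobase in both groups.

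Among the controls of Dataset 1, the unaltered line held Abcc2 at 7.42 CPM, whereas CT clones 1 to 3 held it at 0.981, 1.70 and 1.82 CPM. The FAM3C KO clones stood at 11.2, 22.3 and 9.22 CPM, above all 4 controls. The LIFR KO clones stood at 4.94, 3.70 and 14.2 CPM and the double KO at 3.09 CPM. LIFR KO clones 1 and 2 and the double KO were thus above the CT clones but below the unaltered line, and only LIFR KO clone 3 was above every control. The controls had a mean of 2.98 ± 2.99 CPM (SD, n = 4). The FAM3C KO mean was 14.2 ± 7.05 CPM (SD, n = 3), and the LIFR KO mean was 7.61 ± 5.74 CPM (SD, n = 3). Without the unaltered line, the fitted difference changed from 2.53 to 3.10 for FAM3C KO and from 1.5 to 2.07 for LIFR KO on the log2 scale. The unaltered line therefore differed from the CT clones by more than LIFR KO clones 1 and 2 did.

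**Figure D1:**
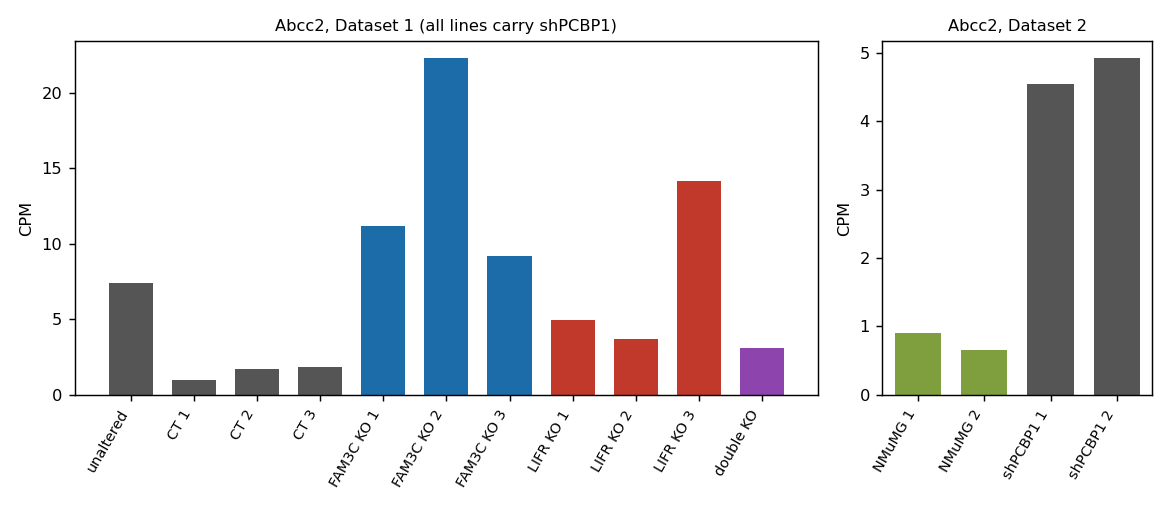
Level of Abcc2 in CPM (vertical axis, from 0) in each line of Dataset 1 (left) and each sample of Dataset 2 (right), 1 bar per RNA sample with no error bar. The unaltered line at 7.42 CPM stands above its CT clones at 0.981 to 1.82 CPM and above LIFR KO clones 1 and 2, and the vertical scales of the panels differ.

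The genes beside Abcc2 on chromosome 19 did not follow it, except in direction in LIFR KO clones 1 and 2. The median deviation of the 20 tested genes on either side was -0.55 and -0.53 on the log2 scale in the shPCBP1 samples of Dataset 2, where Abcc2 deviated by 2.41 and 2.52 from the NMuMG mean. In Dataset 1 the neighbours deviated by -0.09, -0.15 and -0.15 in FAM3C KO clones 1 to 3, where Abcc2 deviated by 2.29, 3.28 and 2.02 from the mean of the 4 controls. They deviated by 0.63, 0.16 and -0.50 in LIFR KO clones 1 to 3 and by -0.60 in the double KO, where Abcc2 deviated by 1.13, 0.72, 2.64 and 0.47. Abcc2 and its neighbours thus lay on opposite sides of the control mean in these lines and samples, except in LIFR KO clones 1 and 2.

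After PCBP1 knockdown, the remaining ABC genes moved in both directions in equal number. Of the 22 members other than Abcc2 that reached a mean of 0.5 CPM, 10 rose and 10 fell at an adjusted p under 0.07, the threshold the paper used (limma, Benjamini-Hochberg adjustment over all 11384 genes tested). Among all genes tested, 42.1% rose and 38% fell, so most genes of these cells passed, and the members' shares were near that background. With a fold change of at least 1.5 required as well, 5 members rose and 5 fell, against 16% and 15.1% of all genes. The median log2 fold change was 0.06 over the members and 0.02 over all genes. The remaining 14 members listed in Dataset 2 stood under the 0.5 CPM limit and were not tested.

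**Figure D2:**
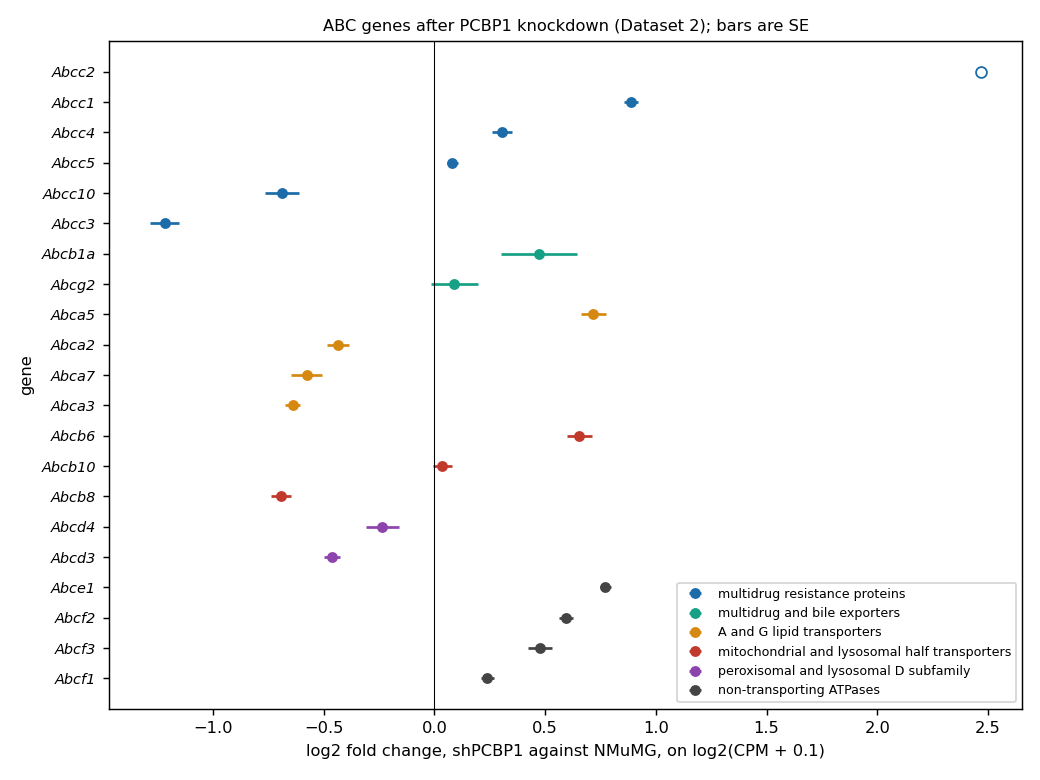
Log2 fold change of shPCBP1 against NMuMG cells of Dataset 2 (horizontal axis, log2(CPM + 0.1) scale, n = 2 per group) for ABC genes above the limit on low values (2 are left out), grouped by role, with bars of 1 SE. The 4 ATPases that do not transport lie right of 0 and Abcd3 and Abcd4 left of it, and Abcc2 at 2.47 is an open symbol because it was chosen by its values and not tested.

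The multidrug resistance proteins of the Abcc subfamily divided. Of the 5 tested, 3 rose and 2 fell. Abcc1 (MRP1), the basolateral exporter of glutathione conjugates and leukotrienes, stood at 32.5 and 32.8 CPM in NMuMG and 59.8 and 61.4 CPM in shPCBP1 cells, a rise of 0.89 ± 0.03 on the log2 scale (SE, limma adjusted p = 6.61e-10). Abcc3 (MRP3), a basolateral exporter of bile salts and glucuronides, stood at 22.6 CPM in each NMuMG sample and at 10.3 and 9.04 CPM in shPCBP1 cells, and fell by 1.22 ± 0.07 (adjusted p = 1.85e-08), the largest fall among the members tested. Abcc3 and Abcc2 thus went in opposite directions and came closer in level, from 22.6 against 0.781 CPM on average to 9.67 against 4.73 CPM. Abcc10 fell by 0.69 ± 0.08 (adjusted p = 9.56e-06), from 9.20 and 9.81 to 5.68 and 6.04 CPM. Abcc4, the cyclic nucleotide and prostaglandin exporter, rose by 0.31 ± 0.04 (adjusted p = 7.87e-05), and Abcc5, another exporter of cyclic nucleotides, rose by 0.08 ± 0.03 (adjusted p = 0.013) from 102 and 99.2 CPM, the largest CPM of any member in NMuMG. The call on Abcc5 was lost without either shPCBP1 replicate, with quantile normalization and with GC correction.

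The drug and bile exporters of the other subfamilies were low. Abcb1a, 1 of the mouse genes for P-glycoprotein, stood at 1.57 and 2.00 CPM in NMuMG and 2.95 and 2.12 CPM in shPCBP1 cells, a rise of 0.47 ± 0.17 (SE, limma adjusted p = 0.026) whose call was lost without NMuMG replicate 1, without shPCBP1 replicate 1 or with quantile normalization. Abcb1b, the closely related P-glycoprotein gene, was at 0.443 and 0.453 CPM in NMuMG and 0.0539 and 0.148 CPM in shPCBP1 cells, below the limit for testing. How reads common to these paralogs were assigned is not given in the sources used here, so the split between them is uncertain. Abcg2, the breast cancer resistance protein, was at 3.06 and 3.39 CPM in NMuMG and 3.44 CPM in each shPCBP1 sample, and its log2 difference of 0.09 ± 0.11 did not pass (adjusted p = 0.45), although Abcg2 passed once the median of its chromosome neighbours had been subtracted and in the GC correction that kept library levels. Abcb4, the phosphatidylcholine floppase of bile, and Abcb11, the bile salt export pump, stayed at or below 0.0355 CPM in every sample of Dataset 2.

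Among the lipid transporters of the Abca and Abcg subfamilies, 4 of 13 members were tested, of which 1 rose and 3 fell. Abca5 rose by 0.72 ± 0.06 (SE, limma adjusted p = 3.71e-07), from 11.3 and 10.7 CPM to 18.1 and 18.2 CPM. Abca3, the lamellar body lipid transporter of surfactant, fell by 0.64 ± 0.03 (adjusted p = 1.85e-08), from 43.4 and 43.8 CPM to 27.6 and 28.3 CPM. Abca7 fell by 0.58 ± 0.07 (adjusted p = 1.85e-05) and Abca2 by 0.44 ± 0.05 (adjusted p = 1.42e-05). Abca1, the cholesterol exporter that forms HDL, was at 0.0532 and 0.0567 CPM in NMuMG and no higher than 0.0186 CPM in shPCBP1 cells. Abcg1, its partner in sterol efflux, had the smallest value found in the table in 3 of the 4 samples.

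The Abcb transporters of mitochondria and lysosomes moved in both directions. Abcb6, a haem and porphyrin transporter, rose by 0.65 ± 0.06 (SE, limma adjusted p = 1.02e-06), from 10.6 and 10.1 CPM to 16.4 and 16.2 CPM. Abcb8, a protein of the mitochondrial inner membrane, fell by 0.69 ± 0.05 (adjusted p = 9.25e-08), from 24.6 and 24.1 CPM to 15.1 and 14.9 CPM. Abcb10 stood at 22.6 to 23.6 CPM in all 4 samples (log2 difference 0.04 ± 0.04, adjusted p = 0.44).

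Of the Abcd subfamily, Abcd3, the peroxisomal importer of branched chain and dicarboxylic acids, fell by 0.46 ± 0.04 (SE, limma adjusted p = 4.13e-07), and Abcd4, which handles cobalamin at the lysosome, by 0.23 ± 0.08 (adjusted p = 0.015), a call that was lost without shPCBP1 replicate 1.

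The 4 ATPases that do not transport all rose, where 42.1% of all genes tested rose. Abce1, which splits ribosomes after termination, stood at 83.4 and 84.1 CPM in NMuMG and 145 and 141 CPM in shPCBP1 cells, a rise of 0.77 ± 0.03 on the log2 scale (SE, limma adjusted p = 3.40e-10). Its chromosome neighbours also stood higher, with medians of 0.45 and 0.41 in the shPCBP1 samples, and after their subtraction Abce1 differed by 0.34. Abcf2 rose by 0.59 ± 0.03 (adjusted p = 2.48e-08), Abcf3 by 0.48 ± 0.05 (adjusted p = 1.06e-05) and Abcf1, a factor in translation initiation, by 0.24 ± 0.03 (adjusted p = 1.83e-05). For Abcf3 the neighbours' medians were 0.44 and 0.42, close to its own deviations of 0.49 and 0.47, and with the neighbours subtracted Abcf3 no longer passed. For Abcf2 the neighbours' medians were 0.10 and 0.11 beside deviations of 0.62 and 0.57.

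Partner genes of these pathways were listed by function, with earlier results of these data known, and their counts are to be read against the 42.1% of all genes that rose and the 38% that fell. Of 15 NRF2 and glutathione genes tested after PCBP1 knockdown, 10 rose and 4 fell, or 7 and 4 after GC correction. Among those that rose were Hmox1, the inducible haem oxygenase (log2 fold change 2.12 ± 0.05, SE, limma adjusted p = 4.52e-11), and Gclc, the catalytic subunit of glutathione synthesis (0.92 ± 0.03, adjusted p = 1.38e-10). The 4 that fell were Gsr (-0.68 ± 0.02, adjusted p = 5.83e-10), Keap1 (-0.48 ± 0.04, adjusted p = 1.53e-06), Me1 (-0.45 ± 0.03, adjusted p = 5.12e-08) and Nfe2l2, which encodes NRF2 itself (-0.50 ± 0.03, adjusted p = 1.31e-08). Gclm did not pass (-0.07 ± 0.06, adjusted p = 0.32). Of 14 genes listed as conjugating enzymes, most of which make substrates for Abcc exporters, 4 rose and 8 fell. Those that rose included Cyp1b1, a cytochrome P450, and Ephx1, an epoxide hydrolase, which do not conjugate. The largest changes in the list were a rise of Cyp1b1 by 4.17 ± 0.18 (adjusted p = 2.78e-09) and a fall of Ugt2b34 by 3.00 ± 0.04 (adjusted p = 5.4e-13). Ugt1a7c, like Ugt2b34 a glucuronosyltransferase, rose by 2.11 ± 0.04 (adjusted p = 3.69e-12). Gstm1, a glutathione transferase, fell by 1.27 ± 0.12 (adjusted p = 3.04e-06). Of 10 xenobiotic and bile acid receptors, 4 rose and 4 fell, or 4 and 6 after GC correction, with Ahr up by 1.09 ± 0.03 (adjusted p = 2.06e-10) and Hnf4a, a liver factor, down by 1.02 ± 0.02 (adjusted p = 2.07e-11). All 5 tested anchors of apical exporters passed, 3 up and 2 down, including Rdx (radixin), which tethers Abcc2 to the membrane (0.19 ± 0.03, adjusted p = 5.36e-05). Among 8 genes of LXR and sterol efflux 2 rose and 5 fell, among 15 of haem and iron-sulfur synthesis 5 rose and 5 fell, among 11 peroxisome genes 1 rose and 6 fell, and among 7 of ribosome recycling 4 rose and 2 fell. No K-ATP pore gene and neither Tap1 nor Tap2 (ABC genes outside the symbol rule) could be tested in Dataset 2.

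The summed level of the family rose from 632 and 626 CPM in NMuMG to 716 and 708 CPM in shPCBP1 cells. Abcc sums went from 197 and 193 to 224 and 222 CPM, Abcf sums from 113 and 109 to 149 and 146 CPM, and the Abca sums from 83.4 and 82.6 to 66.0 and 66.3 CPM. In Dataset 1 the total lay between 1505 and 1653 CPM in every line but the double KO, which was at 1413 CPM. The Abcf sums were 233 to 289 CPM in the controls, 236 to 252 CPM in FAM3C KO and 261 CPM in LIFR KO clone 1, but 160, 158 and 151 CPM in LIFR KO clones 2 and 3 and the double KO. No test was run on these sums, in which long and highly expressed members weigh most.

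**Figure D3:**
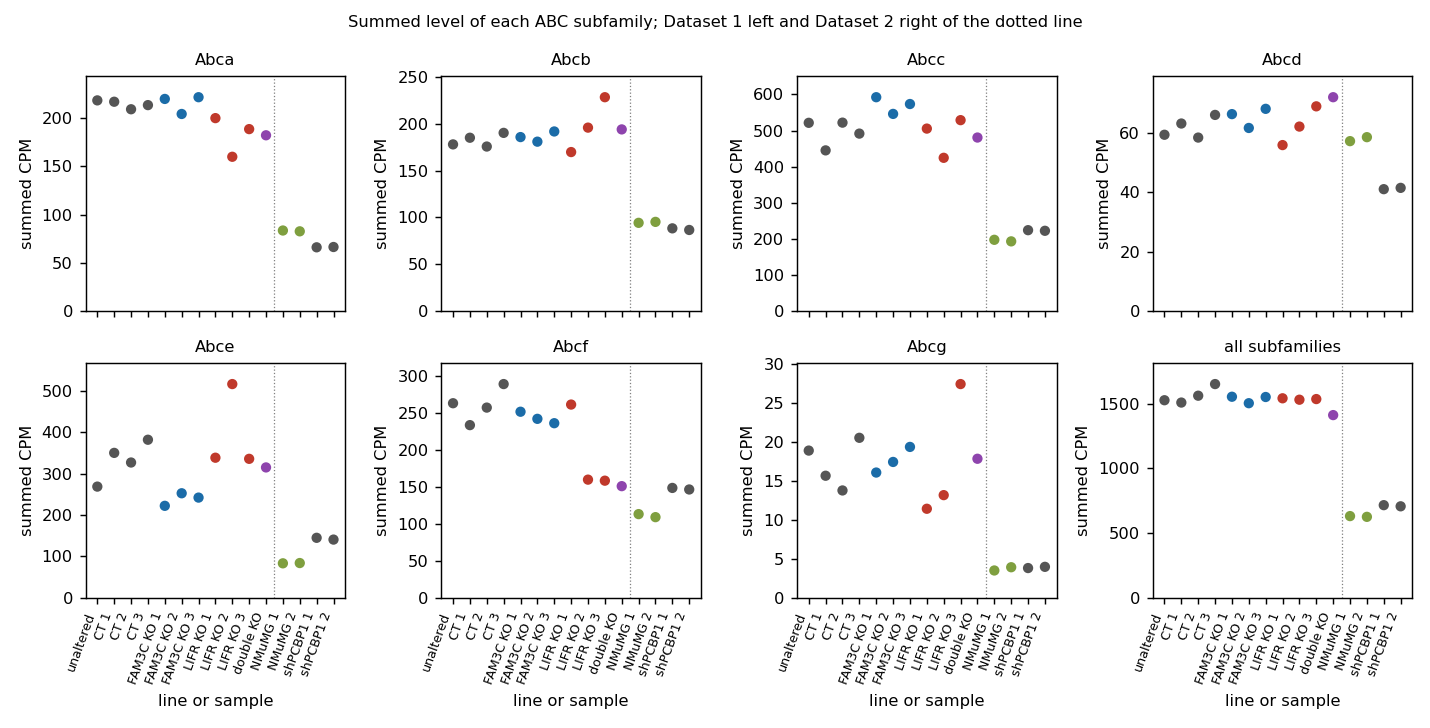
Summed CPM of each ABC subfamily (vertical axes, from 0) in the 11 lines of Dataset 1 and the 4 samples of Dataset 2, 1 point per RNA sample. The Abcf sums of LIFR KO clones 2 and 3 and the double KO lie at 151 to 160 CPM, below the other lines of Dataset 1, while the family total varies little.

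In the FAM3C KO clones, 0 of 25 members tested passed in limma at an adjusted p under 0.07, and 0 of the 92 partner genes tested passed. At an unadjusted p under 0.05 there were 4 members and 10 partner genes. Only 0.0872% of all 12621 genes rose and 0.222% fell in this comparison. With so few calls, a count of 0 among 25 members cannot show whether the members differed from other genes. The share of all genes at an unadjusted p under 0.05 was not counted, here or in the comparisons below. The 4 members were Abcc1, Abce1, Abcc3 and Abca8b. Abcc1 stood at 193, 181 and 165 CPM in the FAM3C KO clones and at 126 to 170 CPM in the controls (log2 difference 0.35 ± 0.13, SE, adjusted p = 0.35). Abce1 stood at 223, 253 and 242 CPM against 269 to 382 CPM, below every control (-0.46 ± 0.17, adjusted p = 0.35), and its chromosome neighbours were lower by similar amounts, with medians of -0.55, -0.59 and -0.51 in these clones. Abcc3 was at 9.92, 2.96 and 11.3 CPM against 11.1 to 18.2 CPM (-0.97 ± 0.39, adjusted p = 0.41), with clone 2 far below the others, and Abca8b was under 0.5 CPM in all FAM3C KO clones (-1.10 ± 0.49, adjusted p = 0.48).

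Other well-known members did not pass in FAM3C KO. Log2 differences were 0.08 ± 0.28 (SE) for Abcg2, 0.10 ± 0.16 for Abcc4, -0.23 ± 0.20 for Abcb6, 0.12 ± 0.14 for Abcd3 and -0.12 ± 0.19 for Abcf1, with limma adjusted p from 0.81 to 0.97. Abcb1a was at 3.98, 2.53 and 3.57 CPM, below the control range of 4.65 to 6.90 CPM, with a log2 difference of -0.74 ± 0.59 that did not pass (adjusted p = 0.79).

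In the LIFR KO clones, 1 of 25 members passed, Abcb1a, which fell. LIFR KO clones 1 to 3 held it at 0.268, 1.46 and 3.47 CPM and the double KO at 0.703 CPM. The unaltered line held it at 5.23 CPM, with 6.90, 5.78 and 4.65 CPM for the CT clones. The log2 difference from the controls was -2.16 ± 0.59 (SE, limma adjusted p = 0.067), close to the threshold of 0.07, and the call was lost in 15 of 22 other settings while the direction held. Every LIFR KO clone was below every control, and clone 1 was the lowest. The chromosome neighbours of Abcb1a deviated by -0.08, 0.18 and 0.37 in the 3 clones, where Abcb1a itself deviated by -3.95, -1.87 and -0.67. Among all genes 0.911% rose and 5.55% fell, and the median log2 fold change was -0.30 over the members and -0.16 over all genes. Median-ratio rescaling, which by design evens out such a general shift, took the median over all genes to -0.01. The members' median after that rescaling is not given here. Without LIFR KO clone 1, 15 of 25 members passed (3 higher, 12 lower), where 57.4% of all genes passed. The count was 0 without LIFR KO clone 2, FAM3C KO clone 1 or 3, or any 1 of the 4 controls (3 to 11 at an unadjusted p under 0.05 in limma), and 2 without FAM3C KO clone 2, Abcc3 among them and Abcb1a not (adjusted p = 0.0872).

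The remaining members in LIFR KO followed the GC content of their transcripts in clones 2 and 3 and the double KO. Across the 25 members, Spearman's rho between GC content and the deviation from the controls was -0.74 in clone 2, -0.58 in clone 3 and -0.46 in the double KO, against 0.05 in clone 1. The same values over 12603 genes were -0.76, -0.74, -0.70 and 0.07, and genes of one library share its depth and preparation. Abcf1 (55.2% GC) was at 123, 72.8 and 69.3 CPM in clones 1 to 3 against 112 to 150 CPM in the controls (-0.59 ± 0.19, SE, limma adjusted p = 0.082). Abca5 (39.8% GC), chosen as an example after its values were seen, was at 53.1, 77.5 and 83.0 CPM against 55.3 to 71.1 CPM (0.19 ± 0.16, adjusted p = 0.42). Clone 1 lay within the controls for Abcf1 and just below them for Abca5, while clones 2 and 3 were below the controls for Abcf1 and above them for Abca5. Abcg2 (39.2% GC) was above the controls in clone 3 alone. After a correction for GC content, the log2 fold changes were -0.14 for Abcf1 and -0.11 for Abca5, and Abcb1a stood at -2.20 ± 0.56 (adjusted p = 0.11). With this correction 0 members passed in limma, and 3 had an unadjusted p under 0.05, against 12 of 25 without it. In the form of the correction that was run first, which kept the general level of each library, Abcb1a passed.

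**Figure D4:**
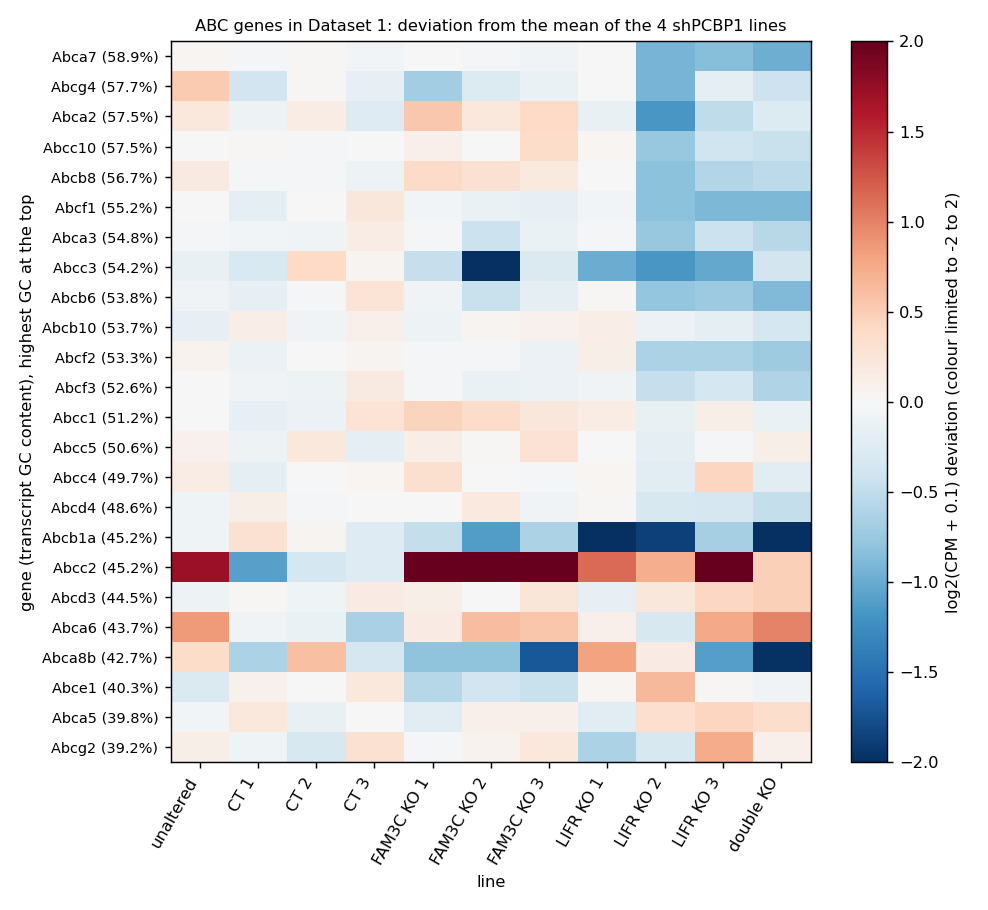
Deviation of tested ABC genes (2 are left out) from the mean of the 4 shPCBP1 lines of Dataset 1 on the log2(CPM + 0.1) scale (colour, limited to -2 to 2), with genes in rows ordered by transcript GC content and lines in columns. GC-rich members are low and several GC-poor members high in LIFR KO clones 2 and 3 and the double KO, and Abcb1a, Abcc2 and Abca8b leave this order.

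Among the well-known exporters, none given here passed in LIFR KO. Abcc3 was at 6.81, 6.07 and 6.73 CPM in the clones, below the control range of 11.1 to 18.2 CPM (-1.06 ± 0.39, SE, limma adjusted p = 0.098). Abcg2 was at 10.1, 12.6 and 26.3 CPM, on both sides of the control range of 12.5 to 19.4 CPM (-0.07 ± 0.28, adjusted p = 0.87). Abcc1 and Abcc4 differed by 0.04 ± 0.13 and 0.08 ± 0.16 (adjusted p = 0.85 and 0.73). Of the 92 partner genes tested, 11 passed in LIFR KO, 2 higher and 9 lower, where 0.911% of all genes rose and 5.55% fell. The largest fall was that of Ephx1 (microsomal epoxide hydrolase), by 1.12 ± 0.17 (adjusted p = 0.025), and Ugt2b34, a glucuronosyltransferase, rose by 1.03 ± 0.25 (adjusted p = 0.051). After GC correction 0 of 92 partner genes passed in limma. At an unadjusted p under 0.05 there were 22, against 39 without the correction, and the share of all genes was not counted.

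Compared directly, FAM3C KO and LIFR KO clones differed for 3 of 25 members, 2 higher and 1 lower in FAM3C KO, where 6.83% of all genes were higher and 1.45% lower. Abca2, a lysosomal lipid transporter, was at 57.3, 45.7 and 52.1 CPM in FAM3C KO and 35.5, 17.6 and 27.7 CPM in LIFR KO (log2 fold change 0.99 ± 0.23, SE, limma adjusted p = 0.044). Abcb8 was at 36.7, 34.9 and 32.3 CPM against 28.1, 15.8 and 18.7 CPM (0.77 ± 0.19, adjusted p = 0.047). Abce1 was at 223, 253 and 242 CPM against 339, 517 and 336 CPM (-0.70 ± 0.18, adjusted p = 0.053). The groups did not overlap for any of these genes, which were named because they passed this same test. How many of all genes did not overlap was not counted. After GC correction 0 of 25 members passed in limma, and 5 had an unadjusted p under 0.05, against 9 without it. The log2 fold changes of the 3 genes were then 0.47, 0.28 and -0.47. The form run first, with library levels kept, left 1 (Abcb8). With chromosome neighbours subtracted 0 passed as well (8 at an unadjusted p under 0.05). The count was 0 or 1 without any 1 control or FAM3C KO clone, 15 without LIFR KO clone 1, 0 without clone 2 and 5 without clone 3. Over all genes 52.9% passed without clone 1 and 11.6% without clone 3.

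Neighbouring genes moved with some of these members. Those of Abca2 were at medians of -0.72 and -0.64 in LIFR KO clones 2 and 3, beside deviations of -1.16 and -0.51 for the gene. Those of Abce1 stood at 0.01, -0.24 and -0.62 in LIFR KO clones 1 to 3, where Abce1 itself deviated by 0.04, 0.65 and 0.03. Those of Abcb8 stayed between -0.14 and 0.03 in all knockout clones, while Abcb8 ranged from -0.83 to 0.38. The part of the neighbourhood in these differences was not tested beyond the subtraction.

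**Figure D5:**
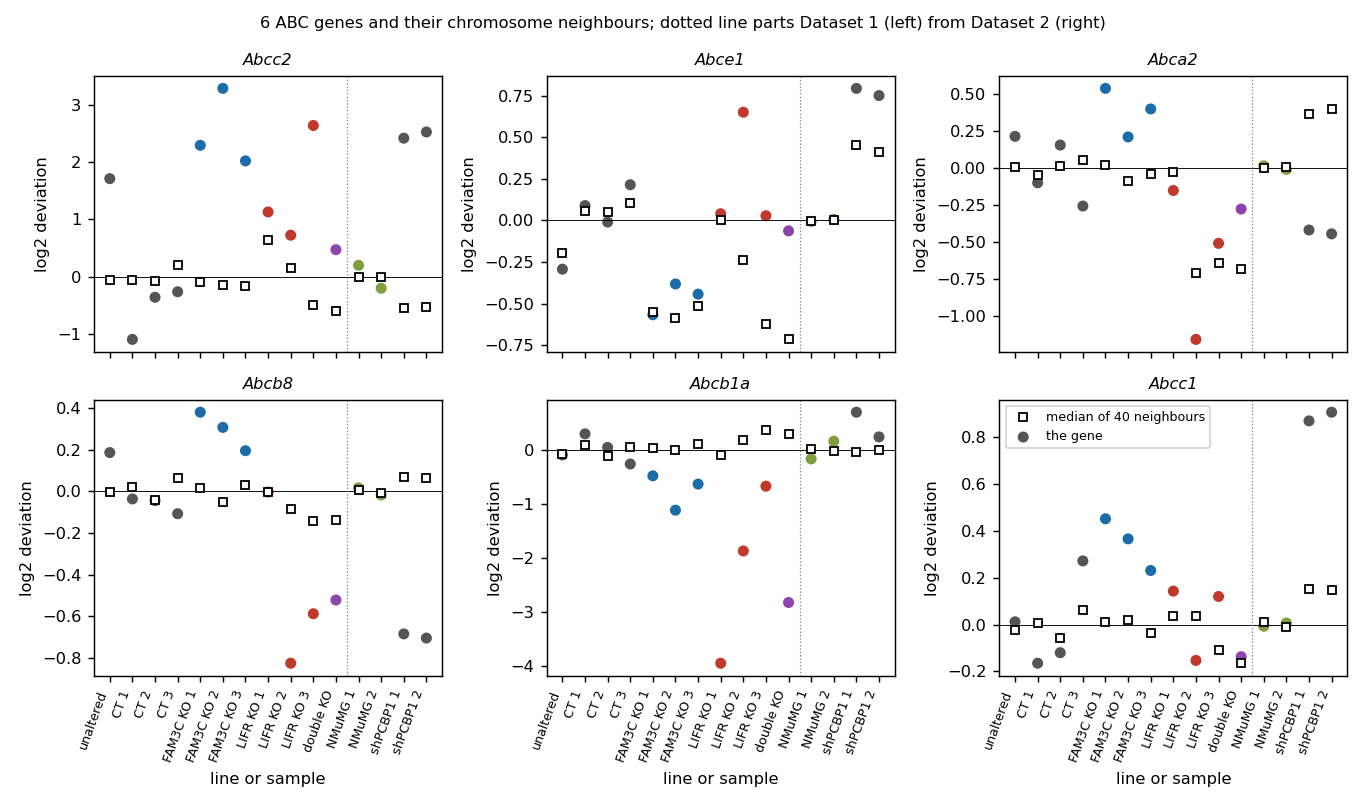
Log2 deviation from the control mean (vertical axes, scales differ between panels) of 6 ABC genes (filled points) and the median of their tested chromosome neighbours, 20 on either side (open squares), in each line or sample. The neighbours of Abce1 lie near the gene in FAM3C KO (medians -0.51 to -0.59), and those of Abcc2 do not follow it.

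The members below the limit on low values were counted apart. In Dataset 1 these were 6 of 32 members and in Dataset 2 14 of 37. Cftr was at 0.0190 CPM or lower in NMuMG and at 0.108 and 0.111 CPM in shPCBP1 cells, values of a few reads. Abca6, just above the limit in Dataset 1, lay at 0.309 to 1.06 CPM in the controls and 0.416 to 0.986 CPM in the knockout clones. Abcg4 was at 0.959 to 1.87 CPM in the controls and 0.624 to 1.29 CPM in the knockout clones.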

How the data were processed

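RNA was depleted of ribosomal RNA, made into directional libraries and sequenced as paired ends by the authors, 1 sample per line in Dataset 1. Per the methods and the submitters' processing notes, reads were aligned with Bowtie2 to GRCm38 in Partek and analysed with DESeq. The values the authors deposited are normalized CPM, in which zeros had been replaced by a low number. Mean columns and fold ratios of Dataset 2 that the authors deposited were not used. From 90.6% to 94.4% of low values were whole steps, which did not allow whole reads to be recovered for a count test. Gene starts matched GENCODE M21 for 14269 of 14795 genes of Dataset 2 and 302 of 13870 of Dataset 1, so coordinates, GC content and lengths came from M21.

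Values were transformed to log2(CPM + 0.1), genes averaging under 0.5 CPM were dropped, and group means were fitted in limma 3.58.1 with a mean-variance trend, the 3 labelled groups of Dataset 1 together and Dataset 2 apart. The double KO, a single sample, entered no test. Adjusted p under 0.07 was the threshold. Where printed, the GC correction subtracted a loess curve (span 0.3) of each library's deviation on GC content, a form adopted after a first one that kept library levels had been seen. The procedure was tested on simulated data. Members and gene lists were chosen with earlier results of these data known. Of the members, 2 are counted but not reported by name here. Genes named were Abcc2, members past the threshold and a fixed list of well-known members.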

Additional observations from a re-analysis of the deposited data

Results flagged for a closer look

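For 3 of 25 members the FAM3C KO and LIFR KO clones differed in the direct limma test. Among all genes, 6.83% were higher in FAM3C KO and 1.45% lower. The count of members was 0 with the replicate block, with neighbours subtracted or with the 2 groups fitted alone. The log2 fold changes (FAM3C KO against LIFR KO) were 0.99 for Abca2, 0.77 for Abcb8 and -0.70 for Abce1, and none of them passed after GC correction, while Abcb8 passed in the form of that correction run first, which kept library levels.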

How the results depend on the processing

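The count of members past the threshold after PCBP1 knockdown was 20, and 17 to 27 under the alternatives other than the fold requirement, which left 10. Leaving out each sample gave 17 to 20. The 10 members with a fold of at least 1.5 there kept their direction and call in all 14 alternatives fitted, which include 3 forms of GC correction added after seeing the data. These gave 18, 19 (with the replicate block) and 20 (library levels kept) members. With neighbours subtracted the count was again 20, but with Abcg2 in place of Abcf3. The FAM3C KO count of 0 became 2 of 25 (Abcb1a and Abce1) with the 2 groups fitted alone, where 8.24% of all genes passed. It stayed 0 otherwise. The LIFR KO count of 1 became 0 with median-ratio rescaling, quantile normalization, neighbours subtracted, GC correction, GC correction with the replicate block, the 2 groups fitted alone or an adjusted p under 0.05, and ranged from 0 to 15 when single lines were left out. It was 2 (Abcc3 among them, Abcb1a lost) without FAM3C KO clone 2, which enters only through the common spread. The direct count of 3 became 0 with neighbours subtracted, GC correction, GC correction with the replicate block or the 2 groups fitted alone, 1 with LIFR KO clone 1 alone (Abcb1a), and ranged from 0 to 15 when single lines were left out. The GC correction was first run in a form that kept each library's level, which left 0 members in FAM3C KO, 1 in LIFR KO (Abcb1a) and 1 in the direct comparison (Abcb8). The form reported, which subtracts the whole curve, was adopted after those results were seen, so the 2 calls depend on a choice made with the data known. The cause of these changes was not tested. Of the fitted values of Abcc2, the 10 members above, and Abcb1a, Abca2, Abcb8 and Abce1 in the comparisons where they passed, 0 changed direction.

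The numbers of clones and replicates did not pair the samples (correlations of same-numbered samples -0.18 to 0.15). With the replicate block the counts were 20 after PCBP1 knockdown, 0 in FAM3C KO, 0 in LIFR KO and 0 in the direct comparison. The fitted log2 difference of Abcc2, which has no test, ranged from 1.69 to 3.01 after PCBP1 knockdown, 2.09 to 3.10 in FAM3C KO and 0.93 to 2.07 in LIFR KO. Where a group was left with 1 sample, that sample was assumed to vary like the others. Read depth limits the members below 0.5 CPM, whose values rest on few reads.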

Other observations

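In the double KO line, 4 of 25 members lay above the range of the 4 shPCBP1 lines, 16 below it and 5 within it. The whole library was shifted, with a median log2 deviation of -0.24 over all genes and -0.37 over the members. The share of all genes outside the control range was not counted, so these counts do not set the members apart. Abcb1a, at 0.703 CPM, and Abca8b, at 0.141 CPM, were 0.15 and 0.27 times the lowest control. Abca7 stood at 17.5 CPM against 33.3 to 35.8 CPM in the controls, beside 18.1 and 19.3 CPM in LIFR KO clones 2 and 3 and 34.9 CPM in clone 1. The line has 1 sample, so these differences have no replicate check.

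Abcb1b was measured in Dataset 1 at a lower level than its paralog Abcb1a, with 0.561 CPM in the unaltered line, 0.283 to 0.725 CPM in the CT clones, 0.161, 0.0832 and 0.257 CPM in LIFR KO and 0.0468 CPM in the double KO. All LIFR KO clones and the double KO were below every control for both paralogs. FAM3C KO clones 1 to 3 held Abcb1b at 0.177, 0.16 and 0.346 CPM, with clones 1 and 2 below every control. For Abcb1a all 3 FAM3C KO clones were below every control. The Abcb1b values rest on about 3, 2 and 6 reads in LIFR KO clones 1 to 3 and 1 in the double KO, against 7 to 34 in the controls. How many of all genes lay below every control in this way was not counted. In Dataset 2 Abcb1b was lower in shPCBP1 cells and Abcb1a higher. Across the 22 members tested in Dataset 2, Spearman's rho between GC content and the deviation in the shPCBP1 samples was -0.56 and -0.53, where over 11242 genes it was 0.08 and 0.09. No test was made of this difference.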
